A study of Mus musculus with 6 samples.

Results

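The genes Tfcp2l1, Prdm14, Tbx3, Zfp42 and Nr5a2 encode transcription factors of naive pluripotency. They were examined for accessible chromatin as mouse embryonic stem cells leave mitosis. The 5 genes were fixed by name, with earlier results of these data known, out of 21883 protein-coding genes of the gene table. Their peaks were all peaks that overlapped a gene or 50 kb on either side of it in the mouse genome (mm10). These windows held 144 of 180047 deposited peaks, which merged into 55 of 65324 regions.

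Accessibility was measured by ATAC-seq, in which the Tn5 transposase inserts adapters into open DNA, in the established mouse embryonic stem cell line CGR8, carrying the Cdt1-MD system named in the series design. Cells were untreated and grew in N2B27 medium with the GSK3 inhibitor CHIR99021 (3 µM), the MEK inhibitor PD184352 (1 µM) and leukemia inhibitory factor (LIF), so all groups share this naive-state culture. The groups were mito, LM and eG1-1 with 2 replicates each, taken to mean mitosis, late mitosis and, for the last, early G1. These readings are not given by the labels, which also leave out how the stages were isolated, how pure they were, and whether a replicate is a culture of its own. The p-values therefore cover the spread among these 6 samples, which may be technical.

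Naive pluripotency is the state of the preimplantation epiblast, and cultured cells hold it under LIF with inhibition of MEK and GSK3. TFCP2L1 is a CP2-family factor that acts downstream of LIF and of GSK3 inhibition. TBX3 is a T-box factor that responds to LIF. PRDM14 is a zinc finger protein that restrains FGF signalling and DNA methylation enzymes and also serves in primordial germ cells. NR5A2 is a nuclear receptor, also called LRH-1, that binds regulatory DNA of Pou5f1. ZFP42, also called REX1, is a zinc finger protein used as a marker of the naive state.

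The lists held 24598 and 30446 peaks in mito, 23867 and 20639 in the LM lists, and 32101 and 48396 in the eG1-1 lists. Read counts are not part of these lists, and depth per sample is unknown. Where no peak is listed, the site was not called, which does not show that it was closed. Each peak has the authors' own score, a whole number of at least 13 in every list, whose scale is not given. Scores are used here to describe and order peaks within a list, and no change between lists is read from them. Where regions are ordered by mean score, or genes by their share of a list's summed score, scores of all 6 lists enter although their scales may differ, so a list with high scores weighs more in the mean. The median score of a list lay between 48 and 59. Stem cell markers had a peak within 1 kb of an annotated gene end for 2 to 7 of 8 genes per list and fibroblast markers for 1 to 4 of 6. Extraembryonic markers had one for 0 to 1 of 6, blood markers for 0 of 4 in every list, and all protein-coding genes for 35.7% to 52.7%. The stem cell markers were at the low end of their range in LM and in eG1-1 replicate 1, and whether this share moved with the counts below was not tested.

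Promoter sequences are shown because peaks were called over some of these starts and not over others. They come from RefSeq on GRCm38.p6, the assembly of mm10, and run from 250 bases before to 50 bases after a start. The table held 4 entries for 3 of the 5 genes, Tfcp2l1, Zfp42 and Nr5a2. Prdm14 and Tbx3 are described by their annotated ends. Capitals mark exact matches to the motifs searched on both strands: ATGCAAAT (octamer), ACAATGG and ACAAAGG (SOX type), CCGCCC and CCCACCC (GC box and KLF type), AAGGTCA and TCAAGGTCA (nuclear receptor type, the first lying inside the second) and TTCCNGGAA (STAT type).

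Tfcp2l1 start, chr1:118627695-118627994, plus strand: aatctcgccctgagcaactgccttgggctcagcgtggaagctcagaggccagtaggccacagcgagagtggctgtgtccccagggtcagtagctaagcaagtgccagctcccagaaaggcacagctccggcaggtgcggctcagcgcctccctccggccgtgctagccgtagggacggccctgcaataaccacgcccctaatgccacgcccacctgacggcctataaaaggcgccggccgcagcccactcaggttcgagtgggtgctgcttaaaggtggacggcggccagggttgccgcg
Zfp42 start, chr8:43306960-43307259, minus strand: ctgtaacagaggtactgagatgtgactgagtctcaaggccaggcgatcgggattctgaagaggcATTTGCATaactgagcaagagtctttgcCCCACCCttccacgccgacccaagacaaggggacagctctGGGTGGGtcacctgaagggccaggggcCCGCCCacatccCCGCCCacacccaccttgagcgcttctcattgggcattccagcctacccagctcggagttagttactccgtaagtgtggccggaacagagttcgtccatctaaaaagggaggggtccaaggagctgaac
Nr5a2 inner start, chr1:136953581-136953880, minus strand: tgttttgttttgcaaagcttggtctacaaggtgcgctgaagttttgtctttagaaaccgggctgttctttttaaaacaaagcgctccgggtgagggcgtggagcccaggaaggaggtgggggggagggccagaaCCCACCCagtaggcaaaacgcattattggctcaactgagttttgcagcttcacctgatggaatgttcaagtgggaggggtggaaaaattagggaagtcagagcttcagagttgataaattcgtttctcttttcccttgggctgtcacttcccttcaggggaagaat
Nr5a2 outer start, chr1:136960399-136960698, minus strand: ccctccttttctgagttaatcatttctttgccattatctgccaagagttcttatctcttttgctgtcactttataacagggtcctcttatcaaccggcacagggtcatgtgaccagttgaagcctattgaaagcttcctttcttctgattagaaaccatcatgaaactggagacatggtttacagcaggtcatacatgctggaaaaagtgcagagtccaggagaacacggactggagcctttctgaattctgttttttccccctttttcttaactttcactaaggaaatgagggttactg

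The Zfp42 window held an octamer match on the reverse strand, first base 186 bases before the start, a motif found in 1.74% of 32851 promoter entries. It also held CCGCCC at 91 and 79 bases before the start (a motif in 35.7% of entries) and CCCACCC or its complement at 158 and 118 bases before it (17.5%). The inner Nr5a2 window held CCCACCC at 116 bases before the start. No motif searched matched in the Tfcp2l1 window or in the outer Nr5a2 window. SOX-type motifs, found in 3.66% and 5.88% of entries, the nuclear receptor motifs, in 4.72% for the shorter and 0.423% for the longer, and the STAT motif, in 1.15%, matched in none of the 4. The Tfcp2l1 window had 65.3% G and C and 21 CG pairs, Zfp42 57.7% and 11, the inner Nr5a2 start 49.0% and 7 and the outer one 42.0% and 2, against medians of 52.7% and 7 over all entries. These matches describe letters and do not show binding.

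Of the 3 genes with a start in the promoter table, Zfp42 and Nr5a2 had a peak within 1 kb of a start in all 6 lists and Tfcp2l1 in 5, while 29.2% of the 17491 protein-coding genes in that table had one in all 6. With the 20639 strongest peaks of each list, Nr5a2 had one in 5 lists and Tfcp2l1 in 4, and with peaks scoring at least 50 in 5 and 3, while Zfp42 stayed at 6. At the Tfcp2l1 start the peak scored 45 and 74 in the mito lists, 71 and 46 in the LM lists and 56 in eG1-1 replicate 2, and eG1-1 replicate 1 had none. The Zfp42 start scored 127 and 149 in the mito lists, 168 and 178 in the LM lists and 191 and 340 in the eG1-1 lists. It exceeded at least 87.8% of the peaks of its own list in every sample.

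At Nr5a2 only the inner of the 2 annotated starts had peaks. The region around it, chr1:136952692-136954556, scored 62 and 86 in the mito lists, 71 and 41 in the LM lists and 56 and 64 in the eG1-1 lists, taking the higher score where a list had 2 peaks there. The outer start had no peak within 1 kb in any list. The inner region chains neighbouring peaks that do not all cover the printed window: peaks touching it scored 62 and 86 in the mito lists, 42 in LM replicate 1, and 56 and 17 in the eG1-1 lists, and LM replicate 2 had none. The peak of LM replicate 2 lay beside it, at chr1:136954077-136954329.

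Tbx3 had a peak over its lower annotated end in every list, in chr5:119670266-119671246. This region also overlaps Tbx3os1, a long noncoding RNA gene, and cannot be assigned to one of the pair. It scored 172 and 260 in the mito lists, 139 and 70 in the LM lists and 96 and 127 in the eG1-1 lists. Its upper end had no peak within 1 kb. Prdm14 had no peak within 1 kb of its lower end, and at its upper end 1 peak, with a score of 22 in eG1-1 replicate 1 alone. Its other called sites lay in the flanks. Those 15.2 and 18.9 kb above the gene overlapped the protein-coding gene Ncoa2. They scored 32 in eG1-1 replicate 1 alone and 59 in eG1-1 replicate 2 alone, and enter the Prdm14 counts below.

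**Figure D1:**
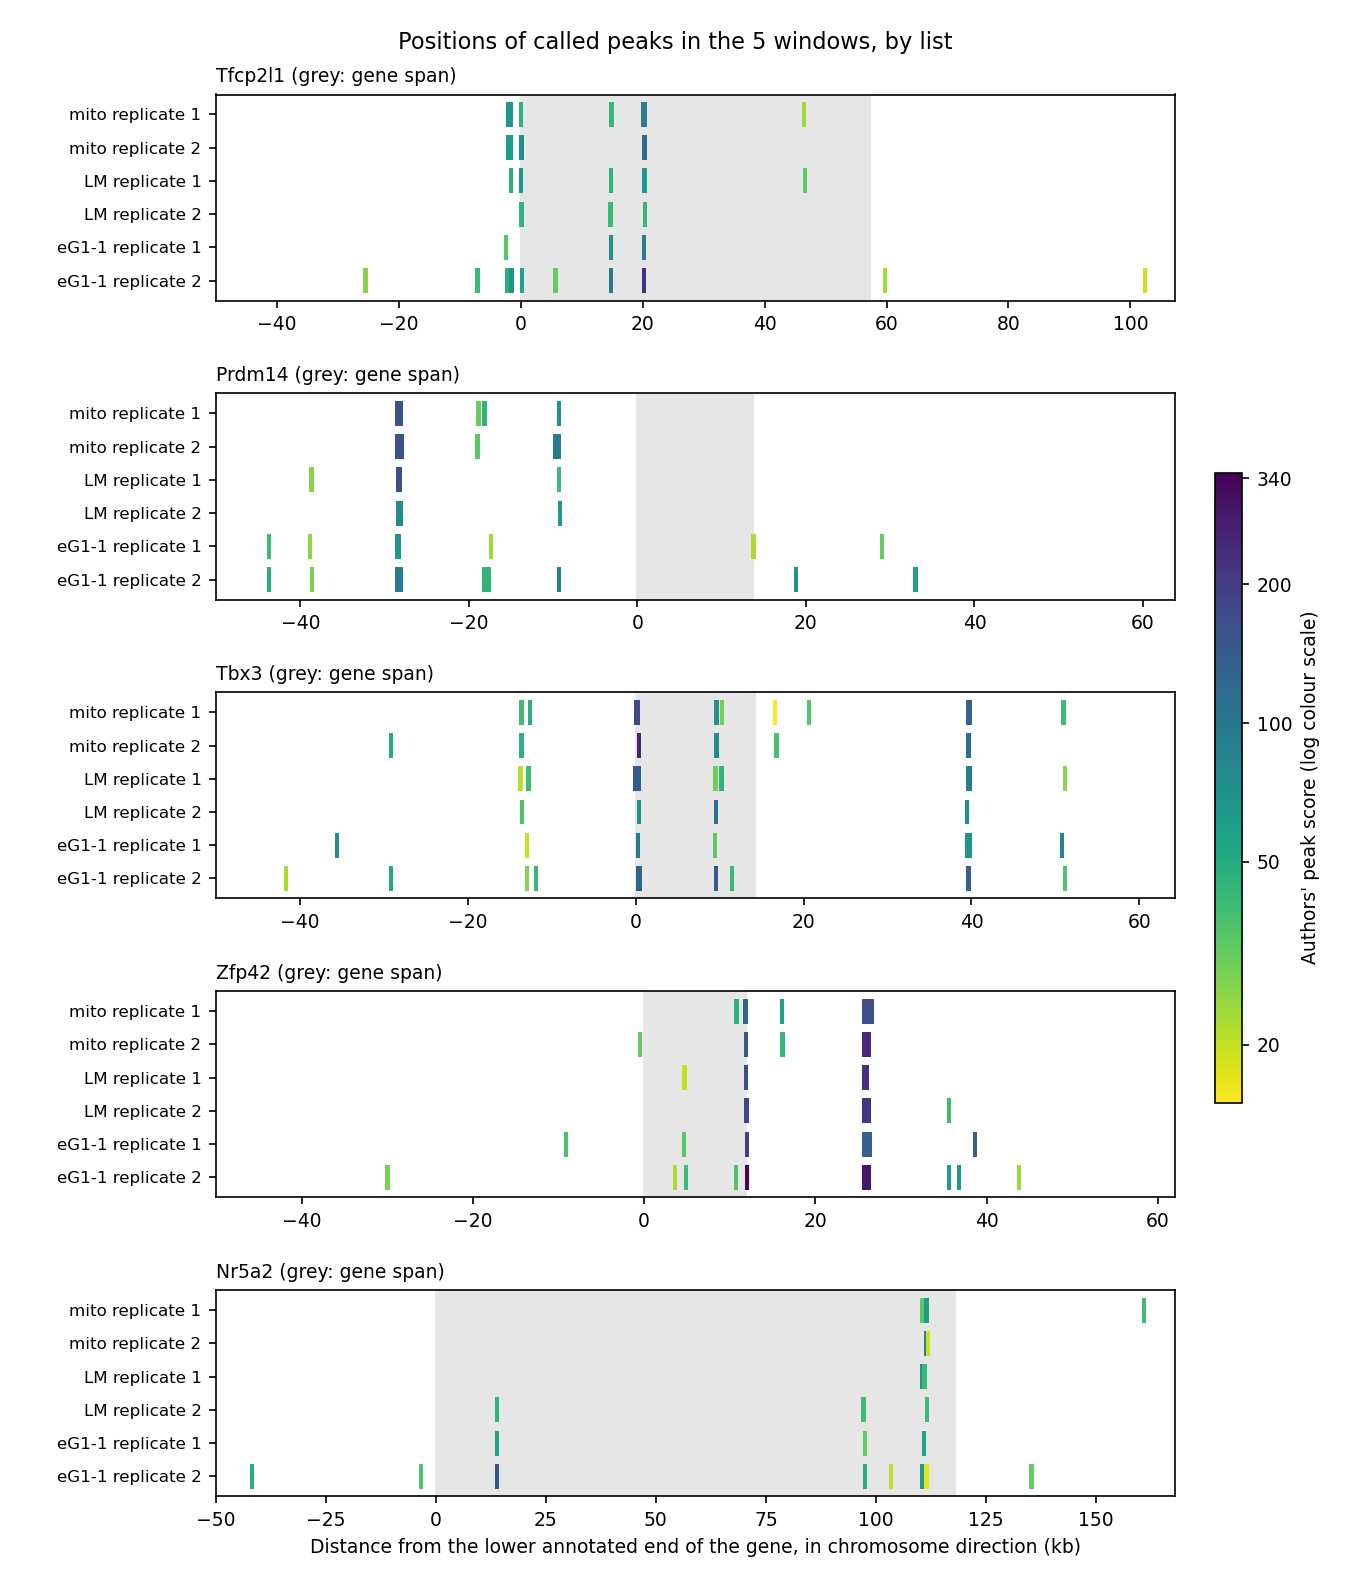
Peaks of each list in the 5 windows. The horizontal axis gives the distance in kb from the lower annotated end of the gene, grey marks the gene span, each bar is 1 peak (narrow peaks are drawn wider to be visible) and the colour is the authors' score on a log scale. The region 13.5 kb beyond the Zfp42 start and the regions at the Zfp42 start and the lower end of Tbx3 recur in all 6 lists, while many pale bars occur in eG1-1 replicate 2 alone.

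In all, 8 of the 55 regions were held in all 6 lists (14.5%), against 15.5% of all regions of the genome. Tbx3 had 3 of them, Zfp42 2, and Tfcp2l1, Prdm14 and Nr5a2 1 each. Their median width was 984.5 bp, close to 983 bp for the regions of the genome held in all 6 lists. Beside the regions at the Zfp42 start, the inner Nr5a2 start and the lower Tbx3 end, they comprised 5 sites away from annotated starts or ends.

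Zfp42 had the highest of these by mean score over the 6 lists (a list without a peak counts as 0), in the flank 13.5 kb beyond the start at chr8:43320540-43321864. It scored 164 and 247 in the mito lists, 230 and 211 in the LM lists and 132 and 294 in the eG1-1 lists. No other annotated gene overlapped the Zfp42 window. Within each list the start region can be set against this flank region, a comparison chosen after the values were seen and therefore given without a test. The start scored 0.774 and 0.603 times the flank in the mito lists, 0.730 and 0.844 times in the LM lists and 1.45 and 1.16 times in the eG1-1 lists. Since the score scale is not given, these ratios do not measure accessibility, and only the order within a list is read. The start was the higher of the pair in both eG1-1 lists and the lower in the other 4.

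At Tfcp2l1 the strongest region by mean score lay inside the gene, 19.7 kb from the start, at chr1:118647663-118648650. It scored 95 and 118 in the mito lists, 66 and 44 in the LM lists and 95 and 222 in the eG1-1 lists, and the value of 222 weighs most in its mean. Within both LM lists the start, with 71 and 46, scored higher than this site, and within the other 4 lists it scored lower or had no peak. A second site inside the gene, chr1:118642395-118643017, scored 43 in mito replicate 1, 45 and 41 in the LM lists and 73 and 98 in the eG1-1 lists, with no peak in mito replicate 2. A site 1.25 kb before the start, chr1:118625419-118626700, scored 68 and 61 in the mito lists, 48 in LM replicate 1 and 34 and 67 in the eG1-1 lists, with no peak in LM replicate 2. These are distinct from the start itself, which eG1-1 replicate 1 lacked while holding all 3 of the other sites.

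Prdm14 had its strongest region in the flank 27.7 kb below the gene, at chr1:13084610-13085745. The scores were 158 and 156 in the mito lists, 171 and 78 in the LM lists and 65 and 96 in the eG1-1 lists. Of the peaks of the same list, 92.5% and 91.0% scored lower in the mito lists, 93.5% and 75.7% in the LM lists and 65.4% and 74.5% in the eG1-1 lists. The lists differ in length, so these positions do not measure change. A site at chr1:13103380-13104383, within the noncoding RNA gene Gm39592, scored 71 and 95 in the mito lists, 41 and 62 in the LM lists and 91 in eG1-1 replicate 2.

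Tbx3 had 2 further regions in all lists. The one inside the gene, chr5:119679808-119680438, scored 72 and 77 in the mito lists, 30 and 110 in the LM lists and 33 and 147 in the eG1-1 lists. The one in the flank 25.1 kb above the gene, chr5:119709792-119710611, scored 129 and 117 in the mito lists, 92 and 70 in the LM lists and 71 and 134 in the eG1-1 lists. The region at the lower end scored higher than the one inside the gene in both mito lists, LM replicate 1 and eG1-1 replicate 1, and lower in LM replicate 2 and eG1-1 replicate 2. The order within the locus therefore differed between replicates of LM and of eG1-1.

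**Figure D2:**
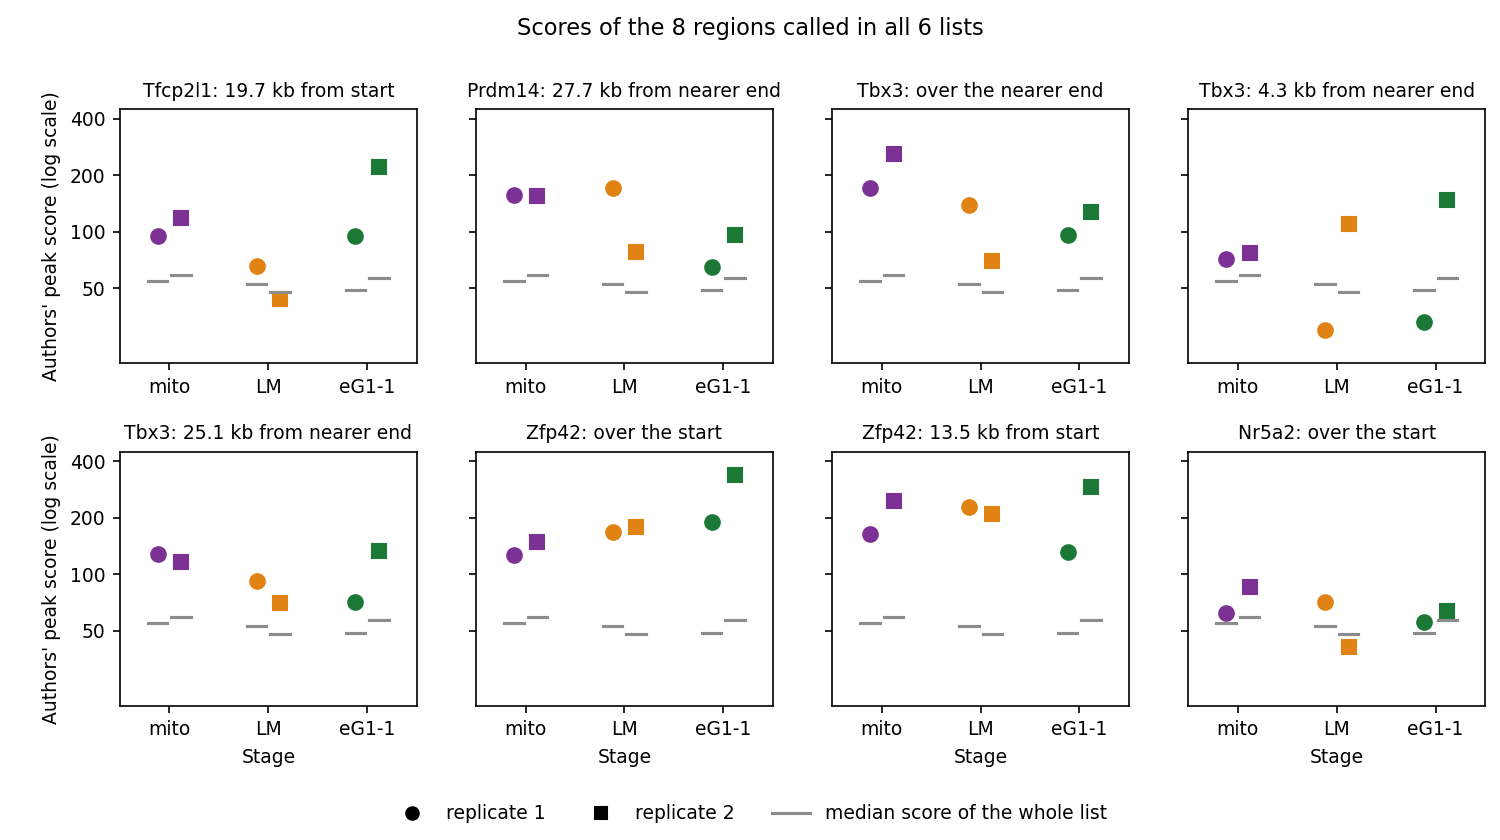
Scores of the 8 regions held in all 6 lists (vertical log axis, authors' peak score) by stage, with circles for replicate 1, squares for replicate 2 and grey ticks for the median score of the whole list. No change between lists is read from these scores; most of these regions lie above the tick, and the Zfp42 start and flank have the highest means, with scores from 127 to 340 and from 132 to 294.

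The number of peaks per window answers whether calls around these genes changed over the stages. Tfcp2l1 had 5 and 3 peaks in mito, 5 and 3 in the LM lists and 3 and 10 in the eG1-1 lists. Its count in eG1-1 replicate 2 includes a peak at chr1:118602309-118602551, with a score of 27, that overlapped the protein-coding gene Clasp1. Prdm14 had 4 and 3 in the mito lists, 3 and 2 in the LM lists and 6 and 7 in the eG1-1 lists. Tbx3 had 9 and 6 in the mito lists, 7 and 4 in the LM lists and 6 and 9 in the eG1-1 lists. For Tfcp2l1 and Tbx3 the stages overlapped, and for Prdm14 both eG1-1 lists lay above all 4 others. Zfp42 had 4 and 4 in the mito lists, 3 and 3 in the LM lists and 5 and 9 in the eG1-1 lists. Nr5a2 had 3 and 2 in the mito lists, 2 and 3 in the LM lists and 3 and 8 in the eG1-1 lists. Zfp42 in the eG1-1 lists also lay above all other lists, and Nr5a2 overlapped. Both eG1-1 lists exceeded the 4 others for 2 of the 5 genes, as they did for 18.4% of all protein-coding genes.

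The slope over mito, LM and eG1-1 was tested for each gene by exact permutation of the lists (two-sided, 90 assignments, smallest possible p 0.0222). This slope rests on mito and eG1-1, and a p under 0.05 was out of reach unless the LM mean lay between theirs. The slope per stage was 1.5 peaks for Prdm14 (exact p = 0.178), 1.5 for Zfp42 (exact p = 0.267), 1.5 for Nr5a2 (exact p = 0.33), 1.25 for Tfcp2l1 (exact p = 0.600) and 0 for Tbx3 (exact p = 1). The LM mean was at or below the mito mean for all 5 genes, so none could pass at these counts, and these p-values do not show that the counts stayed the same. The p-value adjusted over all genes by the Benjamini-Hochberg method was 1 for each of the 5 and for every gene. Without adjustment, a p under 0.05 was reached by 1.01% of genes with a rising and 0.0228% with a falling slope. Over all genes the median slope was 0.5 and 65.2% of slopes were positive.

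All replicate 1 lists carry one identifier in their peak names and all replicate 2 lists another, so replicate number may mark a batch. Among replicate 1 lists, eG1-1 minus mito was -2 peaks for Tfcp2l1, 2 for Prdm14, -3 for Tbx3, 1 for Zfp42 and 0 for Nr5a2. Among replicate 2 lists it was 7, 4, 3, 5 and 6 in the same order of genes. Prdm14 and Zfp42 had more peaks in eG1-1 than in mito within both numbers, and Tfcp2l1 and Tbx3 had opposite signs. Within both numbers the whole eG1-1 list was longer than the mito list. The share of all genes with more peaks in eG1-1 within both numbers is not given here. The result is therefore not read as particular to Prdm14 and Zfp42.

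The eG1-1 lists were also the longest, which touches these counts. Summed over the 5 windows there were 21.5 ± 4.95 peaks in mito, 17.5 ± 3.54 in the LM lists and 33.0 ± 14.1 in the eG1-1 lists (SD, n = 2 each). Per 10000 peaks of a list these were 8.04 ± 3.01, 7.82 ± 0.786 and 8.02 ± 1.22, which differ by less than the spread between replicates. With the 20639 strongest peaks of each list they were 17.5 ± 6.36, 15.5 ± 0.707 and 12.5 ± 0.707. At that length Tbx3 had 7 and 5 peaks in mito, 5 and 4 in the LM lists and 4 and 3 in the eG1-1 lists, a slope of -1.25 (exact permutation p = 0.0889), and the slopes of the other 4 genes were -0.5 for Tfcp2l1 and -0.25 for each of the rest. For those 4 the exact permutation p was 0.533 to 0.933. The median slope over all genes at that length was 0, with 35.05% of slopes negative and 29.9% positive. As peaks per 10000 of the list, the slopes were 0.178 for Nr5a2, 0.176 for Prdm14, 0.119 for Zfp42, -0.00430 for Tfcp2l1 and -0.475 for Tbx3. Prdm14, Zfp42 and Nr5a2 thus turned direction under equal list length and not under this scaling, and Tfcp2l1 turned under both.

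**Figure D3:**
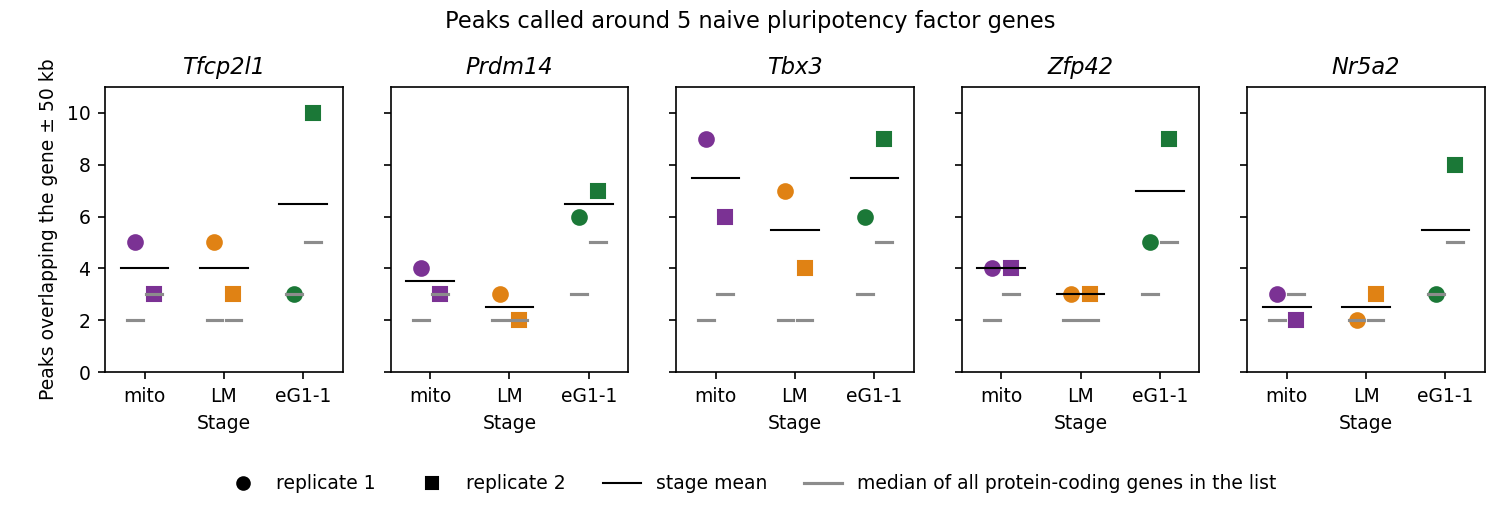
Number of peaks overlapping each gene and 50 kb on either side (vertical axis) by stage, with circles for replicate 1, squares for replicate 2, black lines for the stage mean and grey lines for the median of all protein-coding genes in that list. eG1-1 replicate 2, the longest list, reaches 7 to 10 peaks in each of the 5 windows, and eG1-1 replicate 1 3 to 6.

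Of the 55 regions, 26 (47.3%) occurred in 1 list, against 42.4% of all regions. Of these 26, eG1-1 replicate 2 alone held 18, eG1-1 replicate 1 held 5, mito replicate 1 held 2, mito replicate 2 held 1, and neither LM list held any. Over the genome eG1-1 replicate 2 held 51.5% of single-list regions. The 18 had scores from 19 to 69 with a median of 32, and the median width of single-list regions was 262 bp, against 281 bp for those of the genome. Regions merged from several lists are wider by construction, so widths are not set against those held in more lists. Higher scores occurred in eG1-1 replicate 1 alone, with 137 at chr8:43333558-43333796 near Zfp42 and 76 at chr5:119634851-119635054 near Tbx3. Nr5a2 had 5 single-list regions of its 8 and Tbx3 5 of its 14.

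**Figure D4:**
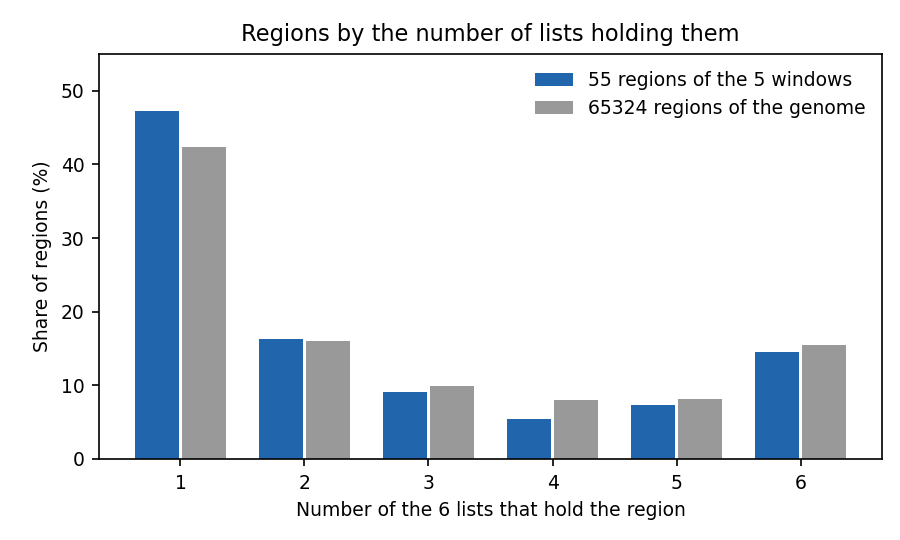
Share of regions (vertical axis, percent) held by 1 to 6 of the lists (horizontal axis), for the 55 regions of the 5 windows (blue) and the 65324 of the genome (grey). Both sets are highest at 1 list, at 47.3% and 42.4%, with a second, lower group at 6 lists, 14.5% and 15.5%.

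Regions held in both lists of one stage and in no list of another were counted next. With 2 lists against 2 an exact test cannot go below a p of 0.33, so these are counts beside the share over all regions. Both eG1-1 lists and no mito list held 5 of the 55 regions (9.09%), against 8.07% of all regions. Both mito lists and no eG1-1 list held 4 (7.27%), against 1.85%. Both eG1-1 lists and no LM list held 2 (3.64%), against 9.38%, and both LM lists and no eG1-1 list held 1 (1.82%), against 0.459%. Both LM lists and no mito list held 0, against 0.905%, and both mito lists and no LM list held 3 (5.45%), against 3.56%. With 1 list of a pair left out the rule asks less, so the counts below rose and do not measure stability. The share of all regions is not given for them here, so they are not read as particular to the 5 windows. Without eG1-1 replicate 1, the count for eG1-1 and not mito was 24 and that for eG1-1 and not LM 22. Without eG1-1 replicate 2 they were 11 and 8, and that for LM and not eG1-1 was 3. Without mito replicate 1 the counts were 9 for eG1-1 and not mito, 5 for mito and not LM and 1 for LM and not mito. Without mito replicate 2 they were 8 for mito and not eG1-1 and 7 for mito and not LM. Without LM replicate 1 they were 7 for eG1-1 and not LM and 3 for LM and not mito, and without LM replicate 2 they were 4 and 2, with 3 for LM and not eG1-1.

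Nr5a2 had 2 of the 5 regions held in eG1-1 and not mito, both inside the gene. At chr1:136856181-136856629 mito had no peak, LM replicate 2 scored 45 and the eG1-1 lists scored 56 and 153. At chr1:136939641-136940442 mito again had none, LM replicate 2 scored 40 and the eG1-1 lists scored 32 and 49. These were the first and second sites of Nr5a2 by mean score after the inner start. Prdm14 also had 2, at chr1:13069645-13069873 with 41 and 49 in the eG1-1 lists and at chr1:13074408-13074937 with 27 in LM replicate 1 and 26 and 28 in the eG1-1 lists. Zfp42 had 1, inside the gene at chr8:43299478-43300209, with 20 in LM replicate 1 and 34 and 41 in the eG1-1 lists. Tfcp2l1 and Tbx3 had none.

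In the other direction Tbx3 had 2 regions. One, at chr5:119656573-119657234, 13.3 kb below the gene and inside Tbx3os1 and Gm16064, scored 40 and 47 in the mito lists and 21 and 36 in the LM lists, with no peak in eG1-1. It was also the region held in both LM lists and no eG1-1 list. The other, at chr5:119687023-119687502 in Tbx3os2, scored 15 and 37 in mito alone. Zfp42 had 1, 4.00 kb beyond the start at chr8:43311005-43311424, with 58 and 44 in mito alone. Prdm14 had 1, at chr1:13094171-13094768 in Gm39592, with 31 and 34 in mito alone. These 3 mito-only regions were also the 3 held in mito and not LM. Against LM, eG1-1 held in addition to the Prdm14 region at chr1:13069645-13069873 the one at chr1:13095000-13096220, which scored 24 and 45 in the eG1-1 lists and 46 in mito replicate 1.

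The other naive and core pluripotency genes gave a related count. Of 18 such genes, among them Esrrb, Nanog, Klf2 and Pou5f1, 0 passed the exact trend test at an unadjusted p under 0.05 in either direction, under the same limit. Their median slope was 0.125, with 9 positive, 7 negative and 2 at 0. Esrrb had 10 and 11 peaks in mito, 11 and 5 in the LM lists and 11 and 15 in the eG1-1 lists (slope 1.25, exact permutation p = 0.667). Nanog had 7 and 6 in the mito lists, 3 and 1 in the LM lists and 3 and 6 in the eG1-1 lists (slope -1.0, exact permutation p = 0.489). Of 12 primed and formative genes, such as Otx2 and Dnmt3a, 0 passed either way, with a median slope of 0.625, 9 positive and 3 negative. Over all genes 1.01% passed with a rising and 0.0228% with a falling slope, and the median slope was 0.5. At those shares, 0 of 18 and 0 of 12 do not set either list apart from other genes.

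Likeness was measured as the Pearson correlation, over the 6 lists, of the share of a list's summed score that lies in a gene's window, among 15372 to 15380 genes with a peak in every list, over 1 Mb from the gene or on another chromosome. Among the 2 nearest genes of each were Scin and Coprs for Tfcp2l1 (r = 0.994 and 0.992), Lmod1 for Prdm14 (0.995), Rps27 and Prss16 for Tbx3 (0.998 and 0.995), Mettl21a and Lrfn4 for Zfp42 (0.984 and 0.982) and Kcnh7 and Uxs1 for Nr5a2 (0.985 and 0.981). Between 17 and 102 genes exceeded 0.95 for each of the 5. With 6 points and the nearest genes picked from all those compared, high values can arise between unrelated genes, so the values only describe.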

How the data were processed

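Peak lists of 6 samples were used, 1 per sample, with chromosome, start, end, name and a score. The deposited score is the authors' whole-number value per peak, on a scale that no source here gives. Peak names show peaks called per sample on paired-end fragments. Per the submitters' processing notes, MACS2 2.2.4, bedtools, deepTools 3.5.1, SAMtools 1.10, Picard and STAR 2.7.0e were used on mm10 (GRCm38), with no role stated. A caller threshold and a Tn5 shift are likewise not given in these sources. No read counts were used, so no precision follows from depth.

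Peaks were merged into regions at 1 bp overlap, in Python 3.11.15 with NumPy 2.4.6, pandas 2.3.3 and SciPy 1.17.1. Genes and promoters came from RefSeq tables on GRCm38.p6. Prdm14 and Tbx3, with no promoter entry used here, were described at either annotated end, since the gene table gives no strand. Trends were tested for every protein-coding gene and the test was checked on simulated data, in which it found a graded rise far more often than a rise in eG1-1 alone. The members, gene lists and tests were chosen with earlier results of these data known. Named regions are those at a start, the 2 of highest mean score per gene and those held in one stage and not another. Others held in 5 or 6 lists, the strongest single-list regions and those in Ncoa2 and Clasp1 were added after values were seen. Named genes of the 2 pathway lists were also picked after their values were seen. One gene among those most alike to Prdm14 is not reported here.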

Additional observations from a re-analysis of the deposited data

How the results depend on the processing

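With the 20639 strongest peaks of each list, slopes turned to -0.5 for Tfcp2l1 and -0.25 for Prdm14, Zfp42 and Nr5a2. As peaks per 10000 of the list the Tfcp2l1 slope was -0.00430. With 100 kb on either side Nr5a2 passed without adjustment (slope 3.5, exact permutation p = 0.0222). The share of all genes passing at 100 kb is not given here, nor a value at 100 kb with equal list length. This pass is therefore not read as a gain of peaks at Nr5a2. No other alternative to the trends passed or turned the direction, except Tfcp2l1 without eG1-1 replicate 2 (slopes from -0.429 to 2.57 with 1 list left out). Tbx3, at a slope of 0, has no direction to turn.

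Regions held in both lists of a first stage and no list of a second depended on settings as follows. The share of all regions under these settings is not given here, so the changes are not read as particular to the 5 windows. At equal list length there was 1 for eG1-1 and not mito, 2 for mito and not eG1-1, 0 for eG1-1 and not LM and 0 for mito and not LM. At a score of at least 50 there were 2 for eG1-1 and not mito, 0 for mito and not eG1-1, 0 for LM and not eG1-1, and 5 regions in all 6 lists. With 25 kb there were 3 for eG1-1 and not mito and 1 for eG1-1 and not LM. With 100 kb these were 9 and 5, and LM and not mito had 1. With 1 list left out the ranges were 5 to 24 for eG1-1 and not mito, 4 to 8 for mito and not eG1-1, 2 to 22 for eG1-1 and not LM, 1 to 3 for LM and not eG1-1, 0 to 3 for LM and not mito and 3 to 7 for mito and not LM. Leaving out a list loosens the rule, so no range starts below the count with all 6 lists. The highest values of eG1-1 came without eG1-1 replicate 1, when the longest list stood alone. The cause of the changes at other settings was not tested.

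Permuting within replicate number (the replicate block, smallest possible p 0.0556) gave exact p = 0.278 for Prdm14, 0.33 for Zfp42, 0.33 for Nr5a2, 0.667 for Tfcp2l1 and 1 for Tbx3, with slopes of 1.5, 1.5, 1.5, 1.25 and 0. At that smallest p no gene could have passed, so the block is no check of these calls. Deviations of same-numbered lists correlated at 0.0141 to 0.0328 over 65324 regions. The main test did not treat the numbers as pairing the samples, a choice that this correlation does not settle for the counts. A correlation over regions does not register a shift shared by a whole list, as in its number of peaks. It therefore does not test for a batch in the counts. Unknown depth limits every statement on a missing peak.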
